A study of Mus musculus with 172 samples.

Results

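The BXD lines are recombinant inbred mice, each homozygous at nearly every locus for the allele of C57BL/6J (B6) or of DBA/2J (D2). The lines described here are the 33 BXD/RwwJ lines of the study, split by the allele they carry at Pla2g4e on chromosome 2. The allele was read from the study's own genotype assignment and not from expression, and it gave 13 D2 carriers and 20 B6 carriers. In the study's figure that assignment is the haplotype under the mapped expression peak. By the position the paper gives, the marker of this peak lies proximal of Pla2g4e. The allele at the gene itself was thus inferred from a linked marker. The labels of the samples do not give this allele, and the assignment was not checked against a genotype file here, BXD89 included. BXD89 had levels nearer to the B6 carriers at most of the called genes compared below, so its D2 label is uncertain at Pla2g4e itself. Whether it carries a recombination near Pla2g4e or was wrongly assigned was not tested. These lines account for 132 of the 172 libraries, 33 in each combination of tissue and condition.

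The D2 carriers were BXD50, BXD56, BXD61, BXD64, BXD65, BXD65a, BXD66, BXD79, BXD83, BXD84, BXD89, BXD90 and BXD101. The B6 carriers were BXD43, BXD44, BXD45, BXD48, BXD48a, BXD49, BXD51, BXD55, BXD67, BXD70, BXD71, BXD73, BXD73b, BXD75, BXD81, BXD85, BXD87, BXD95, BXD98 and BXD100. Cortex and liver came from male mice that had either been sleep deprived (SD) by gentle handling for the 6 h after light onset or been left undisturbed (Ctr), and both groups were killed at the same time of day. RNA of the mice of a line was pooled, so each line gave 1 library per tissue and condition and is the unit of every test. Fewer mice were pooled for BXD79, BXD85 and BXD101, and BXD48a, BXD65a and BXD73b are each the subline of another line. The sample labels give these sublines as 96, 97 and 103, in that order. C57BL/6J and DBA/2J (2 pools each) and their 2 reciprocal F1 hybrids did not enter the comparisons reported here and are given for orientation. One of the alternative settings added the parental strains.

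Pla2g4e encodes the epsilon member of the group IV (cytosolic) phospholipases A2. The enzyme acts as a calcium-dependent N-acyltransferase and makes N-acylphosphatidylethanolamines, the membrane lipids from which N-acylethanolamines such as the endocannabinoid anandamide are released. In a recombinant inbred panel, an allele is inherited together with a long stretch of flanking chromosome. Carriers of the 2 alleles of 1 gene therefore also differ at its neighbours, and an effect of Pla2g4e itself and of any linked variant cannot be told apart in these comparisons. Genes at increasing distance from the locus show how far along chromosome 2 the carriers differed.

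Expression is given as log2 CPM (reads relative to the size of the library, on a log2 scale), and the change of a line is its SD value minus its Ctr value. Differences are D2 carriers minus B6 carriers on that scale, with the SE of limma, and a gene is called different when its Benjamini-Hochberg adjusted p over all genes listed in the tissue was under 0.05. Reads in listed genes ranged per library from 19025159 to 28998853 in cortex (median 22584170) and from 4681101 to 8269401 in liver (median 6682413). Low values are therefore less precise in liver. Reads outside the listed genes are not in these counts. Neuron markers (6 of 6 listed) summed to 7848 to 8890 CPM in the cortex Ctr libraries of D2 carriers and 8046 to 8851 CPM in those of B6 carriers. In liver Ctr libraries hepatocyte markers (all 5 listed) summed to 2134 to 3106 CPM in D2 and 2033 to 3034 CPM in B6 carriers. Alb, Apoa1 and Tat were not listed in cortex. These sums were not compared with other liver data, and whether abundant liver transcripts were fully counted was not tested. None of the members of the 11 marker lists was called in any of the 6 comparisons of level or change, where at most 0.55% of all genes were called. An unadjusted p under 0.05 by limma was found for 2 of 3 listed B cell markers in liver Ctr pools. The median difference of that list was -0.56, against 0.003 over all genes. The same held for 2 of 4 microglia markers in cortex Ctr and 2 of 4 oligodendrocyte markers in cortex SD pools. Whether cell composition differed was not tested. The D2 haplotype differs from the B6-derived reference genome, and whether reads of D2 carriers mapped less often was not tested.

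One D2 carrier and one B6 carrier stood apart from the others. Among called genes with a difference of at least 0.5 up to 20 Mb from Pla2g4e, BXD89 lay nearer to the mean of the B6 carriers at 19 of 26 genes in cortex Ctr, at 12 of 19 in cortex SD, at 14 of 20 in liver Ctr and at 19 of 21 in liver SD. The B6 carrier BXD75 lay nearer to the D2 carriers at 13 of 26 genes in cortex Ctr, at 10 of 19 in cortex SD, at 9 of 20 in liver Ctr and at 13 of 21 in liver SD. Up to 5 Mb from Pla2g4e these were 4 of 14, 2 of 9, 2 of 12 and 3 of 11 genes for BXD75. The D2 carrier BXD56 lay nearer to the B6 carriers at 6 of 26 genes in cortex Ctr. On the proximal side BXD89 had the D2 level at Scg5, Meis2, Bub1b and Knstrn in cortex and at Disp2 in liver. Liver genes proximal of Disp2 were divided, on a scale from 0 (mean of B6 carriers) to 1 (mean of D2 carriers). In Ctr pools Bub1b (0.85) and A430105I19Rik (1.73) lay nearer to the D2 carriers, and Bmf (0.32) and Pak6 (0.43) nearer to the B6 carriers. In SD pools Bmf (0.06), Pak6 (0.28) and A430105I19Rik (0.41) lay nearer to the B6 carriers. From Ivd, 1.28 Mb proximal of Pla2g4e, to the distal end of this stretch the cortex Ctr level of BXD89 lay nearer to the B6 carriers at every gene except Hdc and Ckap2l. Counts of genes called for a level are given without BXD89 and without BXD75 too.

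**Figure D1:**
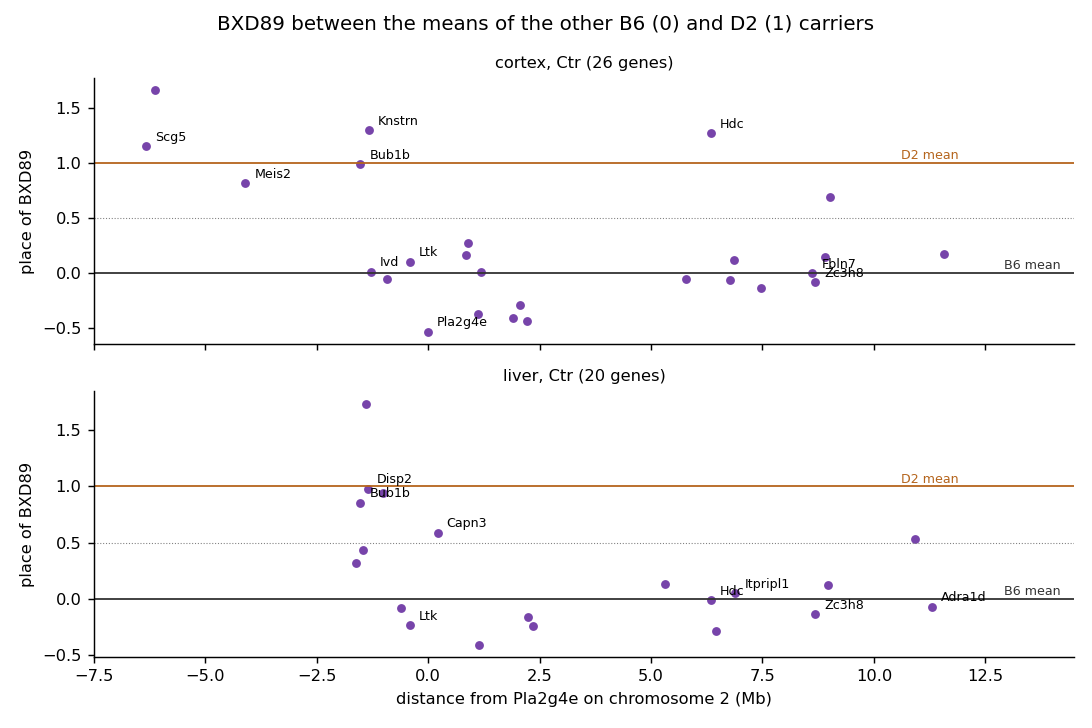
Place of BXD89 between the means of the other carriers (0, B6 carriers; 1, D2 carriers) at each called gene with an absolute difference of at least 0.5 log2 CPM, plotted against distance from Pla2g4e on chromosome 2, in cortex (26 genes) and liver (20 genes) of Ctr pools. Most genes distal of Ivd sit near 0, and Scg5, Bub1b, Knstrn and Disp2 sit near 1. In liver Bmf (0.32) and Pak6 (0.43), on the proximal side, lie nearer to 0.

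In cortex, Pla2g4e was lower after SD than in Ctr pools in all 33 lines, and the fall was smaller in every D2 carrier than in any B6 carrier. In Ctr pools the 20 B6 carriers ranged from 4.72 (BXD73b) to 5.40 (BXD100) log2 CPM with a median of 5.12. The 13 D2 carriers ranged from 4.71 (BXD89) to 5.97 (BXD50) with a median of 5.90. The groups overlapped, since BXD89 lay just below the lowest B6 carrier, so that all 20 B6 carriers lay inside the range of D2 carriers. The next D2 carrier, BXD56, lay just below the highest B6 carrier. In linear units the means were 34.5 ± 3.73 CPM in B6 carriers (SD, n = 20) and 54.9 ± 10.5 CPM in D2 carriers (SD, n = 13), a ratio of 1.59. The difference was 0.64 ± 0.09 (SE, adjusted p = 7.63e-06 by limma). It was 0.73 without BXD89.

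After SD the B6 carriers ranged from 2.70 (BXD85) to 3.75 (BXD87) log2 CPM with a median of 3.36, and the D2 carriers from 4.18 (BXD89) to 5.26 (BXD50) with a median of 5.12. Every D2 carrier lay above every B6 carrier, and the second-lowest D2 carrier was at 4.86. The means were 9.78 ± 2.24 CPM in B6 carriers and 33.2 ± 5.36 CPM in D2 carriers (SD, n = 20 and 13), a ratio of 3.40. The difference of 1.77 ± 0.11 (SE) had an adjusted p of 3.47e-14 by limma.

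The change of Pla2g4e ranged from -2.51 (BXD85) to -1.35 (BXD45) in B6 carriers, with a mean of -1.84 ± 0.32 (SD, n = 20). In D2 carriers it ranged from -0.86 (BXD65) to -0.45 (BXD56), with a mean of -0.71 ± 0.12 (SD, n = 13). The ranges did not overlap, and BXD89 at -0.53 had the change of a D2 carrier although its Ctr level was that of a B6 carrier and its SD level lay midway between the means of the other carriers. The difference in change was 1.13 ± 0.09 (SE, adjusted p = 1.35e-11 by limma), and without BXD89 it was 1.11. Over the 12 alternative settings tried, the adjusted p of this change ran from 3.33e-13 to 0.0225, the highest with another variance trend. Pla2g4e was the single gene of 14896 whose changes did not overlap between carriers (0.00671% of genes). The study chose this locus for the change of Pla2g4e in these same libraries, so its difference in change is a description of them and not independent evidence. The Ctr and SD levels of Pla2g4e make up that change, so the differences in its levels are not independent evidence either. In bulk cortex, fewer cells of a type and less RNA per cell cannot be told apart. Pla2g4e was not listed in liver. Its exons overlap those of Gm13997 on the same strand.

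The parental and F1 pools did not enter these comparisons and lay as follows. In C57BL/6J the change was -1.88 and -2.20, and in DBA/2J -0.57 and -0.81, inside the ranges of the carriers of their allele. The F1 hybrids, which carry 1 copy of each allele, changed by -0.92 (B6D2F1) and -1.03 (D2B6F1), between the parents and outside the range of either group of carriers. Their Ctr levels of 5.58 and 5.52 and their SD levels of 4.65 and 4.48 also lay between those of the parents.

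**Figure D2:**
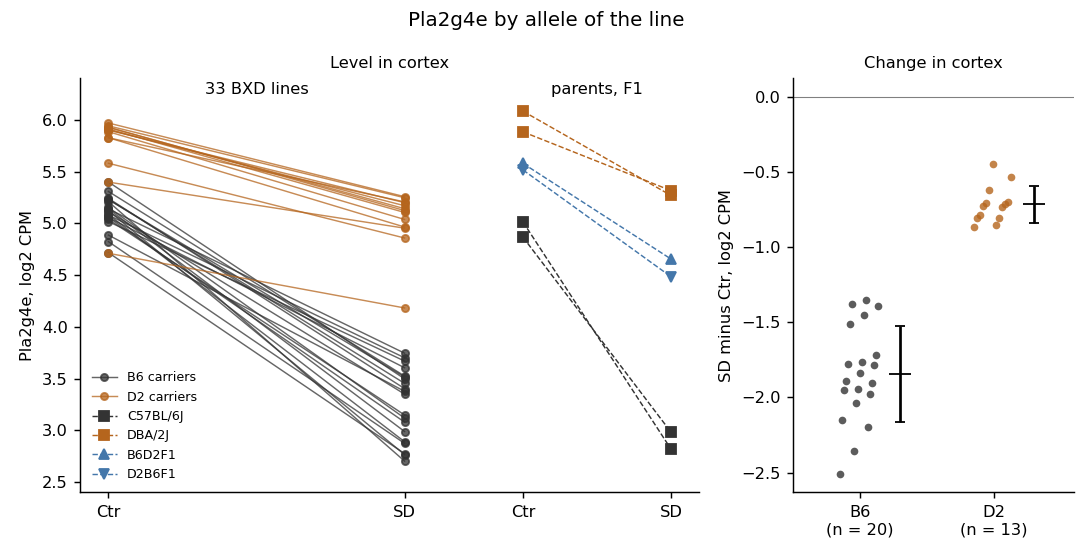
Pla2g4e in cortex. Left, log2 CPM in the Ctr and SD pools of each BXD line (solid lines; grey, 20 B6 carriers; brown, 13 D2 carriers) and of the parental and F1 pools (dashed lines). Right, the change of each line with the mean and SD of the carriers beside it. The B6 carriers fell by 1.35 to 2.51 and the D2 carriers by 0.45 to 0.86.

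Of the group IV phospholipases A2, 3 of 6 genes were listed in cortex, and Pla2g4e was the one called in each of the 3 cortex comparisons. Pla2g4a, which releases arachidonic acid from membranes, differed in change by -0.09 ± 0.12 (SE) and Pla2g4c by -0.19 ± 0.21 (SE), with adjusted p of 0.901 and 0.874 by limma. Pla2g4b, Pla2g4d and Pla2g4f, which sit beside Pla2g4e on the chromosome, were not listed. Of 17 listed genes of N-acylethanolamine and endocannabinoid metabolism and signalling, among them Napepld (which releases N-acylethanolamines), Faah (which degrades them) and Cnr1 (the main cannabinoid receptor of the brain), 0 were called by limma in the cortex change, and 2 had an unadjusted p under 0.05. Their median difference in change was 0.006, against 0.002 over all genes. Of 19 arachidonate genes 0 were called and 2 had an unadjusted p under 0.05, with a median of -0.01. Of 18 activity-regulated genes (immediate-early genes and other genes that rise with neuronal activity) 0 were called, 0 had an unadjusted p under 0.05, and the median was -0.12. Egr2 had the lowest difference among them, -0.41 ± 0.32 (SE), with a mean change of 3.18 in B6 carriers. No member of these 3 lists was called in any other comparison of level or change.

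Over all 14896 genes in cortex, 2 genes (0.0134%) were called for the change, and both lay within 5 Mb of Pla2g4e, where 99 genes were listed. The second was Rmdn3, which encodes a protein that tethers mitochondria to the endoplasmic reticulum and lies 1.01 Mb proximal of Pla2g4e. An unadjusted p under 0.05 was found for 914 genes, 6.14% of those tested. Rmdn3 was higher after SD in all 33 lines, by 0.30 ± 0.07 in B6 carriers (SD, n = 20) and by 0.12 ± 0.07 in D2 carriers (SD, n = 13). The B6 carriers ranged from 0.19 (BXD87) to 0.53 (BXD43) with a median of 0.29, and the D2 carriers from 0.004 (BXD90) to 0.21 (BXD79) with a median of 0.15. Of the B6 carriers only BXD87 lay in the range of the D2 carriers, while 4 of 13 D2 carriers lay in the range of the B6 carriers. The difference was -0.18 ± 0.03 (SE, adjusted p = 0.00171 by limma).

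The levels of Rmdn3 differed in Ctr pools and were not shown to differ after SD. The Ctr mean was 5.65 ± 0.06 log2 CPM in B6 carriers and 5.81 ± 0.06 in D2 carriers (SD), a difference of 0.17 ± 0.02 (SE, adjusted p = 3.01e-05 by limma). The SD means were 5.95 ± 0.06 and 5.94 ± 0.05, a difference of -0.01 ± 0.02 (SE, adjusted p = 0.969 by limma). In liver the sign was the other one: D2 carriers lay lower by 0.18 ± 0.03 (SE) in SD pools (adjusted p = 0.00315 by limma), and the Ctr difference of -0.13 ± 0.04 was not called (adjusted p = 0.266).

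The next genes in order of p within 5 Mb were not called. Adal, an adenosine deaminase-like gene, had a mean change of 0.33 in B6 and 0.13 in D2 carriers (difference -0.21 ± 0.05, adjusted p = 0.354 by limma). Knstrn, which encodes a protein of the mitotic spindle, had mean changes of 0.97 and 0.50 (difference -0.47 ± 0.12, adjusted p = 0.456 by limma).

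Levels differed at many more genes than changes, and nearly all of them lay on chromosome 2. In cortex Ctr pools 82 of 14896 genes were called (0.55%), 22 higher and 60 lower in D2 carriers, and 78 of them lay on chromosome 2. Within 5 Mb of Pla2g4e 37 of 99 listed genes were called (37.4%), from 5 to 20 Mb 34 of 180 (18.9%), and beyond 20 Mb 7 of 882 (0.794%). On other chromosomes 4 of 13440 genes were called (0.0298%). The called genes within 20 Mb ran from Lgr4, 10.1 Mb proximal, to Rassf2, 11.7 Mb distal. Besides Pla2g4e itself they were 19 of 112 listed genes on the proximal and 51 of 166 on the distal side. Srp14, a subunit of the signal recognition particle, was the single gene without overlap in Ctr pools (0.00671% of genes), with B6 carriers from 5.47 to 5.76 and D2 carriers from 5.76 to 6.31 log2 CPM, ranges that nearly touched. All 7 called genes beyond 20 Mb lay on the distal side, at 23.3 Mb (Pcsk2) and between 33.0 and 38.4 Mb (Pofut1 to Ppp1r16b).

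In cortex SD pools 67 genes were called (0.45%), 21 higher and 46 lower in D2 carriers, and 65 lay on chromosome 2. The bins of distance held 29 of 99, 32 of 180 and 4 of 882 listed genes. The Ctr and SD calls shared 56 genes, 68.3% of the Ctr and 83.6% of the SD genes, and all 56 had the same direction in both. Without BXD89 94 genes were called in Ctr and 85 in SD pools, and without BXD75 88 and 70.

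**Figure D3:**
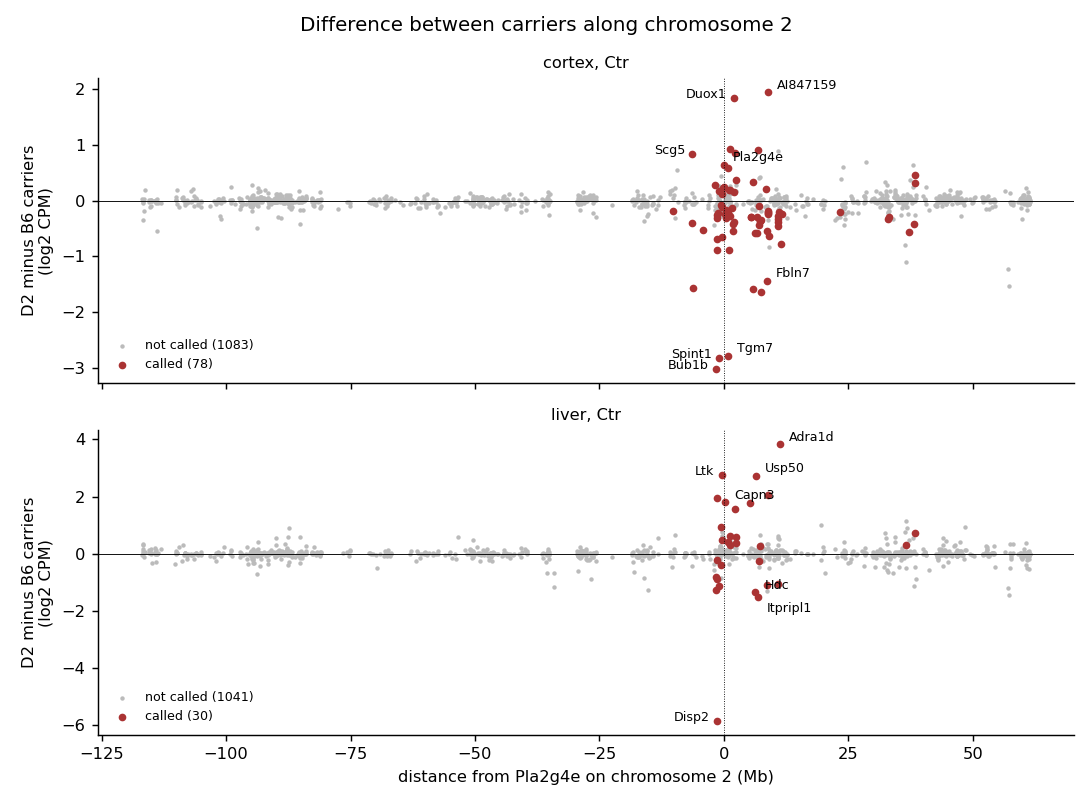
Difference between D2 and B6 carriers (log2 CPM) of each gene listed on chromosome 2 against its distance from Pla2g4e, in cortex (1161 genes) and liver (1071 genes) of Ctr pools. Called genes (red, 78 in cortex and 30 in liver) lie mostly between 10.1 Mb proximal and 11.7 Mb distal of Pla2g4e.

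The parental pools lay in the same order as the carriers at nearly all of these genes. DBA/2J differed from C57BL/6J with the sign of the carriers at 78 of 78 called chromosome 2 genes in cortex Ctr and at 64 of 65 in cortex SD pools (Zscan29 was the exception). The mean of both F1 pools lay between the parents at 67 and 57 of them.

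Among the genes lower in D2 carriers in cortex, the largest differences were at genes of low level. Bub1b, a kinase of the spindle checkpoint, was at -1.85 ± 0.61 log2 CPM in D2 carriers and at 1.17 ± 1.59 in B6 carriers (SD), a difference of -3.02 ± 0.44 (SE, adjusted p = 3.18e-05 by limma). B6 carriers alone spread from -1.09 to 2.79 at Bub1b, so its level varied widely within 1 allele of Pla2g4e. Spint1, an inhibitor of cell-surface serine proteases, differed by -2.82 ± 0.30 (SE), with 21 to 45 reads in B6 and 0 to 29 in D2 carriers. Tgm7, a transglutaminase, differed by -2.79 ± 0.24 (SE), with 7 to 24 reads in B6 and 0 to 10 in D2 carriers. At Spint1 and Tgm7 BXD89 had the highest level of the D2 carriers, 0.52 and -0.93 log2 CPM, and without it the differences were -3.07 ± 0.25 and -2.98 ± 0.19 (SE).

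Further genes with large lower values lay on the distal side beyond 5 Mb. The growth factor gene Fgf7 differed by -1.58 ± 0.23, Mall (a membrane proteolipid of the MAL family) by -1.64 ± 0.27 and Fbln7 (a fibulin of the extracellular matrix) by -1.44 ± 0.17 (SE). In SD pools these differences were -1.86 ± 0.22, -1.45 ± 0.20 and -1.87 ± 0.17.

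Several well-expressed genes were lower in D2 carriers as well. Ivd, the mitochondrial isovaleryl-CoA dehydrogenase of leucine breakdown, ranged from 5.82 to 6.12 log2 CPM in B6 carriers and from 4.98 to 5.96 in D2 carriers, where BXD89 was the highest. Its difference was -0.68 ± 0.05 (SE, adjusted p = 6.85e-11 by limma), and -0.74 ± 0.03 without BXD89. B2m, the light chain of MHC class I, differed by -0.54 ± 0.09 (SE, adjusted p = 0.000384). Spg11, a gene of lysosome reformation mutated in hereditary spastic paraplegia, differed by -0.42 ± 0.06 and the homeobox gene Meis2 by -0.53 ± 0.08 (SE).

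Knstrn was the second gene besides Pla2g4e whose SD levels in cortex did not overlap between carriers (2 of 14896 genes, 0.0134%). In SD pools B6 carriers ranged from 1.27 (BXD71) to 2.15 (BXD75) log2 CPM with a median of 1.59, and D2 carriers from -0.11 (BXD83) to 0.63 (BXD101) with a median of 0.21. The SD difference was -1.35 ± 0.08 (SE, adjusted p = 3.47e-14 by limma), against -0.88 ± 0.10 in Ctr pools. The groups overlapped in Ctr pools, where D2 carriers reached 0.53 (BXD56) and B6 carriers began at 0.16 (BXD100). There 1 D2 carrier lay in the range of the B6 carriers and 6 B6 carriers in that of the D2 carriers.

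Higher levels in D2 carriers were found at fewer genes. The noncoding AI847159 differed by 1.95 ± 0.28 and Duox1, an NADPH oxidase that makes hydrogen peroxide, by 1.84 ± 0.30 (SE) in cortex Ctr pools. A share of 3.99% of the 100-base stretches of Duox1 is also found in Duox2, and the value of Duox1 is uncertain to that degree. Serinc4 differed by 0.92 ± 0.15, but its exons overlap those of Ell3 on the same strand. All of these genes were of low level. Reads in B6 and D2 carriers ran from 4 to 46 and 7 to 66 at AI847159 and from 1 to 25 and 2 to 35 at Duox1. At Serinc4 they ran from 5 to 16 and 9 to 28. Duox1 and Serinc4 were not called in SD pools. Ncaph, a subunit of condensin I, differed by 0.92 ± 0.15, and the pseudogene Bambi-ps1 by 0.86 ± 0.13.

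Scg5 encodes the chaperone of prohormone convertase PC2, and Pcsk2 encodes PC2. Scg5 was at 8.69 ± 0.49 log2 CPM in D2 and 7.85 ± 0.40 in B6 carriers (SD), a difference of 0.84 ± 0.15 (SE, adjusted p = 0.000581 by limma). The groups overlapped, with B6 carriers reaching 8.98 and D2 carriers beginning at 7.53. Pcsk2 lay 23.3 Mb distal and differed by -0.20 ± 0.05 (SE, adjusted p = 0.0489 by limma). That call was close to the threshold, and whether it holds under the alternative settings was not tested. Dusp2, a phosphatase of MAP kinases, was called in SD pools, with a difference of 0.81 ± 0.14 (SE, adjusted p = 0.000355 by limma), and not in Ctr pools (0.40 ± 0.15, adjusted p = 0.561). Its difference in change, 0.41 ± 0.17, was not called (adjusted p = 0.782), so the conditions were not shown to differ.

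Close to Pla2g4e, called and uncalled genes alternated. Of the 5 listed genes on each side, Mapkbp1 (0.22 ± 0.03), Tmem87a (0.24 ± 0.03) and Rpap1 (0.13 ± 0.03, SE) were higher in D2 carriers in cortex Ctr pools, and all 3 were called in SD pools too. The Ctr call of Rpap1 was lost without the 3 sublines or without the 3 lines with fewer mice, and over the alternatives its adjusted p by limma ran from 0.0237 to 0.175. The receptor tyrosine kinase gene Tyro3 differed by -0.05 ± 0.03, the transcription factor gene Mga by -0.04 ± 0.05, the endosomal genes Ehd4 and Vps39 by 0.13 ± 0.05 and 0.07 ± 0.02, Ganc by 0.005 ± 0.04 and Zfp106 by -0.04 ± 0.05 (SE). None of these 6 genes was called in any comparison. Capn3, the remaining neighbour, was called in liver and not in cortex.

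**Figure D4:**
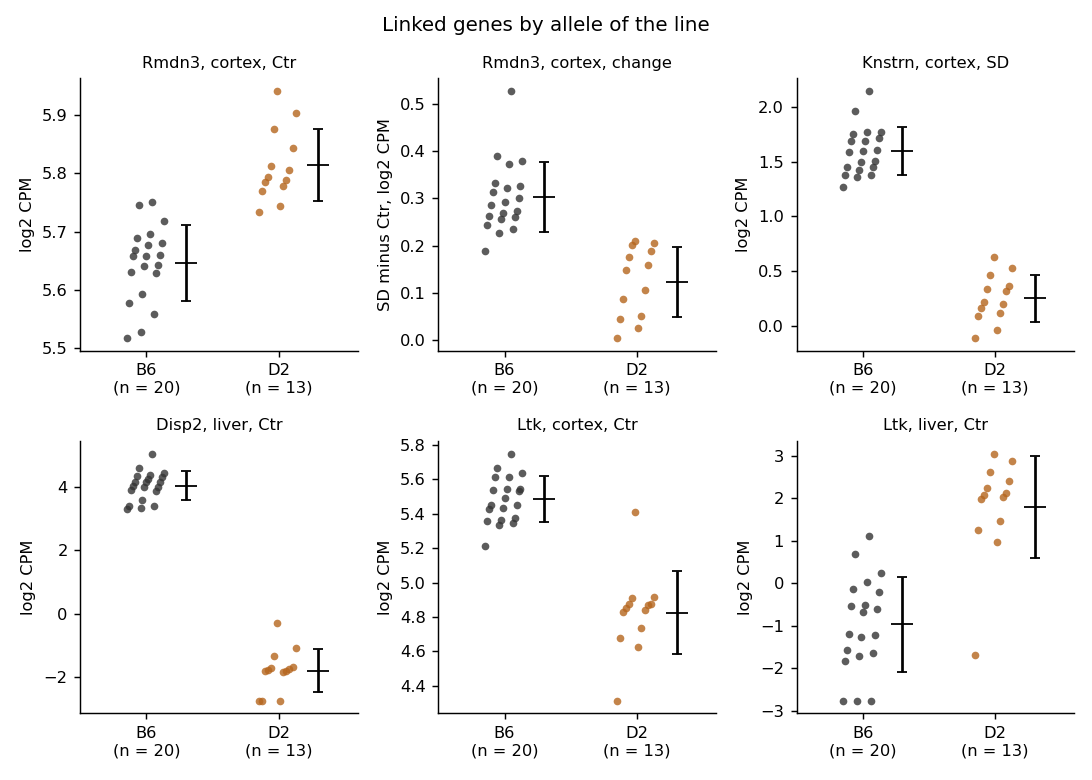
Values of each BXD line at 4 linked genes by allele at Pla2g4e, in log2 CPM (for the change of Rmdn3, SD minus Ctr), with the mean and SD beside the points. Knstrn (cortex, SD) and Disp2 (liver) do not overlap between carriers, and Ltk is lower in D2 carriers in cortex and higher in liver.

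In liver Ctr pools 31 of 14107 genes were called (0.22%), 19 higher and 12 lower in D2 carriers, and 30 lay on chromosome 2. The bins of distance held 18 of 93, 10 of 170 and 2 of 808 listed genes. Without BXD89, 48 genes were called, among them all 31, and without BXD75 40, again with all 31. In liver SD pools 28 genes were called (0.198%), 15 higher and 13 lower, all on chromosome 2, and 31 without BXD89 or 30 without BXD75. The Ctr and SD calls shared 23 genes, 74.2% and 82.1% of them, all with the same direction. DBA/2J differed from C57BL/6J with the sign of the carriers at 29 of 30 chromosome 2 genes in Ctr and at 27 of 28 in SD pools (Exd1 was the exception in SD pools). The mean of both F1 pools lay between the parents at 27 of these 30 and at 19 of these 28 genes, and in SD pools at 8 of the 15 called genes up to 5 Mb from Pla2g4e.

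The difference of largest size was at Disp2, a relative of the Dispatched protein that releases Hedgehog signals. In liver Ctr pools B6 carriers ranged from 3.32 (BXD81) to 5.06 (BXD98) log2 CPM with a median of 4.09, from 65 to 249 reads. D2 carriers ranged from -2.77 to -0.31 (BXD56) with a median of -1.80, from 0 to 5 reads, and 3 of 13 had no read. The groups were far apart, and BXD89 at -1.68 lay with the D2 carriers. The means were 17.1 ± 5.63 and 0.173 ± 0.173 CPM (SD), a ratio of 98.8, and the difference was -5.84 ± 0.20 (SE, adjusted p = 2.42e-22 by limma). Disp2 was the single gene whose liver Ctr levels did not overlap (0.00709% of genes). In SD pools the means were 15.8 ± 4.00 and 0.419 ± 0.262 CPM, a ratio of 37.6.

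In cortex Disp2 was expressed at 504 ± 32.8 CPM in B6 and 483 ± 31.2 CPM in D2 carriers, with a difference of -0.06 ± 0.03 (SE, adjusted p = 0.867 by limma). The C57BL/6J pools were at 3.21 and 3.07 log2 CPM in liver, the DBA/2J pools at -1.14 and -1.22 and the F1 pools at 3.35 and 2.91, so the F1 hybrids were near C57BL/6J.

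Ltk, a receptor tyrosine kinase related to ALK, differed in opposite directions in the 2 tissues. In cortex Ctr pools B6 carriers ranged from 5.21 (BXD73b) to 5.75 (BXD44) log2 CPM with a median of 5.47, and D2 carriers from 4.31 (BXD56) to 4.91 with 1 exception, BXD89 at 5.41. The difference was -0.66 ± 0.06 (SE, adjusted p = 7.98e-09 by limma), and -0.71 ± 0.05 without BXD89. In liver Ctr pools B6 carriers ranged from -2.77 to 1.10 (BXD95) with a median of -0.93, and D2 carriers from 0.97 to 3.05 (BXD101), again with BXD89 apart at -1.68. The means were 0.523 ± 0.517 and 4.13 ± 2.18 CPM (SD), a ratio of 7.88, and 3 of 20 B6 carriers had no read. The liver difference was 2.76 ± 0.39 in Ctr and 3.44 ± 0.35 in SD pools (SE, adjusted p = 4.97e-05 and 6.23e-08 by limma). Without BXD89 these were 3.05 ± 0.34 and 3.60 ± 0.34 (SE).

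Capn3, the calcium-dependent protease calpain 3 of muscle, was higher in the liver of D2 carriers. The Ctr mean was 13.3 ± 5.62 CPM in B6 and 44.2 ± 8.68 CPM in D2 carriers (SD), a ratio of 3.32 and a difference of 1.80 ± 0.17 (SE, adjusted p = 9.49e-09 by limma). After SD the lines did not overlap, with B6 carriers up to 4.01 (BXD55) and D2 carriers from 4.36 (BXD89) log2 CPM. Capn3 and Disp2 were the 2 genes without overlap in liver SD pools (0.0142% of genes). In cortex the difference at Capn3 was -0.03 ± 0.08 (SE). Exons of Capn3 and Ganc overlap on the same strand, and Ganc itself differed by 0.11 ± 0.07 in liver Ctr pools and was not called.

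Several genes of low level in liver differed with a wide spread among lines. Adra1d, the alpha-1D adrenergic receptor gene, differed by 3.83 ± 0.65 in Ctr pools (SE, adjusted p = 0.000739 by limma). Its reads ran from 0 to 80 in B6 carriers, of which 8 had none, and from 0 to 112 in D2 carriers, of which 1 had none, so the groups overlapped. Usp50 differed by 2.74 ± 0.39 and A730036I17Rik by 2.06 ± 0.45 (SE). The liver Ctr call of A730036I17Rik was lost without the sublines or without the lines with fewer mice, and over the alternatives its adjusted p by limma ran from 0.00371 to 0.197. For Usp50, 9.19% of its 100-base stretches are also found in Polr2l and its exons overlap Gm10774 on the same strand, and its value is uncertain. Pak6, a p21-activated kinase gene, differed by 1.95 ± 0.26 in liver and by -0.26 ± 0.06 in cortex Ctr pools.

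Lower in the liver of D2 carriers were Itpripl1 (-1.52 ± 0.16), Hdc (-1.35 ± 0.22), Bub1b (-1.25 ± 0.19) and Zc3h8 (-1.09 ± 0.17, SE, Ctr pools). Hdc, histidine decarboxylase, makes histamine. Zc3h8 and Bub1b were lower in cortex as well, with -0.55 ± 0.06 for Zc3h8. Of the liver genes higher in D2 carriers, Gatm catalyses the first step of creatine synthesis and differed by 0.59 ± 0.10, and Cep152, a centriole protein, by 1.77 ± 0.20 (SE). Fbln7 was called in liver SD pools (-1.55 ± 0.29), and its Ctr difference of -1.31 ± 0.31 had an adjusted p of 0.06 by limma.

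For the change in liver 0 of 14107 genes were called by limma (0%), and 574 (4.07%) had an unadjusted p under 0.05. With voom weights on the recovered reads 0 were called too. The 2 genes within 5 Mb with the smallest p were Disp2 (0.96 ± 0.21) and Bub1b (0.97 ± 0.22, SE), both with an adjusted p of 0.318. At Disp2 the change of D2 carriers rested on 0 to 7 reads per library.

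Whether the tissues differed was tested on the liver minus cortex value of each line, over the 12695 genes listed in both. For the Ctr level 37 genes were called (0.291%), all on chromosome 2, with 20 up to 5 Mb, 15 from 5 to 20 Mb and 2 farther away. Without BXD89 51 genes were called, and without BXD75 44. The liver minus cortex value of the carriers' difference was above 0 at 29 genes and below 0 at 8. The largest were Disp2 (-5.78 ± 0.19), Adra1d (3.94 ± 0.66), Ltk (3.42 ± 0.40), Spint1 (2.60 ± 0.35), A730036I17Rik (2.41 ± 0.48) and Pak6 (2.21 ± 0.26, SE). For the change 0 genes were called by limma (0%), and 428 had an unadjusted p under 0.05.

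The calls of the 2 tissues overlapped in part. In Ctr pools 15 genes were called in both, 18.3% of the cortex and 48.4% of the liver genes. Of these, 11 differed in the same direction, among them Adal, Bloc1s6, Chp1, Hdc and Zc3h8, and 4 in opposite directions, namely Ltk, Pak6, Catsper2 and Fahd2a. In SD pools 9 genes were called in both, and Ltk was the 1 with opposite directions.

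**Figure D5:**
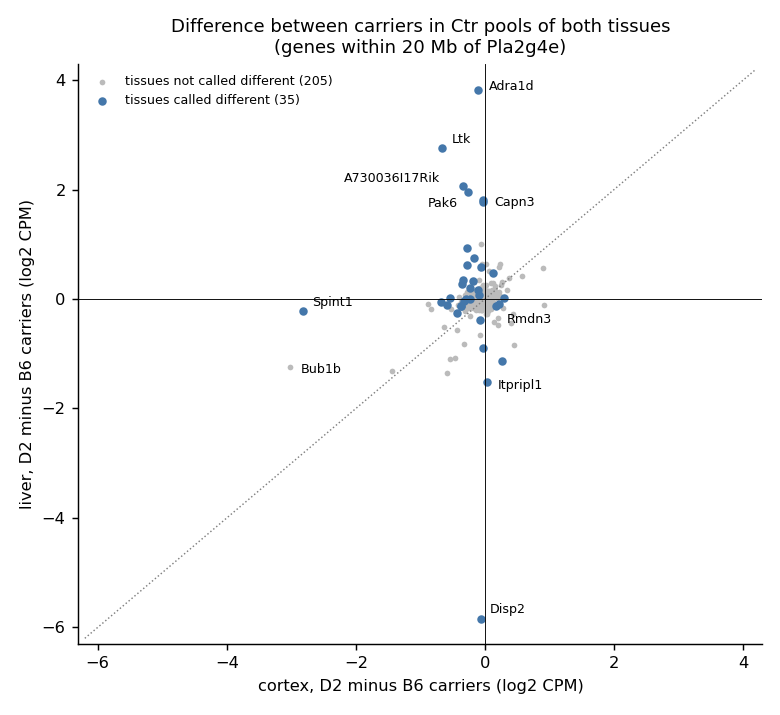
Difference between D2 and B6 carriers in liver against that in cortex (log2 CPM, Ctr pools) for genes within 20 Mb of Pla2g4e that were listed in both tissues, with the dotted line marking equal differences. The 35 genes called in the test of the tissue difference (blue) lie off that line, and Disp2, Adra1d and Capn3 lie near 0 in cortex.

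Genes on other chromosomes were seldom called. In cortex Ctr pools the median absolute difference of those called was 0.32, against 0.34 for called genes of chromosome 2. The distant genes were Rbm28 (chromosome 6; 0.24 ± 0.05), Rad9b (chromosome 5; -0.34 ± 0.08), 3830408C21Rik (chromosome 13; -0.32 ± 0.07) and 4933421O10Rik (chromosome 4; -0.31 ± 0.08, SE), with adjusted p from 0.0209 to 0.0483 by limma. Rbm28, which encodes an RNA-binding protein of the nucleolus, differed by -0.05 between the parental pools, the sign opposite to the carriers. Each of these 4 calls was lost under at least 1 alternative. Over the alternative settings the number of distant genes called ran from 1 (without the 3 sublines) to 6 in cortex Ctr pools and from 2 to 7 in cortex SD pools. In cortex SD pools the distant genes were 2210016F16Rik (chromosome 13; -0.23 ± 0.05) and C330018D20Rik (chromosome 18; -0.22 ± 0.05), 0.0149% of the 13440 listed. In liver Ctr pools the one distant gene was Fndc3b (chromosome 3; 0.23 ± 0.05, adjusted p = 0.0322 by limma), where alternatives gave 0 to 3, and in liver SD pools there were 0 of 12799 (0 to 1). None of the 6 distant genes of cortex was called in liver, and none was called for the change in either tissue.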

How the data were processed

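RNA-seq of cortex and liver was analysed in Ctr and SD pools of the 33 BXD/RwwJ lines. Per the paper's methods, the authors sequenced stranded mRNA libraries in single-end reads, aligned them to mm9 with STAR, counted reads per RefSeq gene by strand with htseq-count, excluded genes of low mean count and normalized with edgeR's TMM method. The deposited values are log2 CPM, with 14896 genes in cortex and 14107 in liver. Undoing the logarithm and a prior count close to 1 read gave a whole number of reads, to a tolerance of 0.02, for 100% of values. These reads gave the depths, the read ranges and the means, SDs and ratios of genes in CPM, and they served voom. Differences and calls on the log2 scale, apart from voom, used the deposited values. A ratio of means in CPM therefore need not match the log2 difference, above all at genes with few reads. Marker sums undid the logarithm only.

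D2 and B6 carriers were compared with limma 3.58.1 in R 4.3.3 (lmFit, eBayes with a variance trend) over all listed genes of a tissue, at a Benjamini-Hochberg adjusted p under 0.05. The change was taken within each line. Its variance trend used the mean level over Ctr and SD pools. That trend was chosen after the data had been seen, and under limma's default, a trend on the mean change, the SE at Pla2g4e was 0.20 instead of 0.09. The default is among the alternatives. Pools of a line were checked for pairing by the line that the labels give: in cortex Ctr and SD deviations of the same line correlated by at least 0.293 (median 0.6), in liver by at least 0.299 (median 0.48), against medians of -0.0232 and -0.0194 for different lines. Scripts were tested on simulated data.

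Genes were placed by symbol with GENCODE vM1 on NCBIM37 (mm9), 14601 of 14896 in cortex and 13870 of 14107 in liver, and distance was taken from Pla2g4e (chromosome 2, 119992148 to 120071071, minus strand). Named genes are the group IV phospholipases A2, up to 5 listed genes on each side of Pla2g4e, the 5 highest and 5 lowest called genes of chromosome 2 and the 5 called distant genes of smallest p in each comparison, and called members of the lists. The rule also asked for called genes whose mean change had opposite signs in the carriers, and there were 0. Other named genes (Srp14, Ivd, B2m, Spg11, Meis2, Knstrn, Adal, Pcsk2, Gatm, Cep152, Catsper2, Fahd2a and Exd1 among them) were chosen after their values were seen. The members and lists were chosen with earlier results of these data known. With 1 pool per line, p-values measure the spread between lines. Alternatives were eBayes without a trend, median-centred libraries, a filter on mean level (log2 CPM no lower than 0), a pseudocount of 1 CPM, voom, leaving out sublines or lines with fewer mice, adding the parental strains, no replicate block and, chosen after seeing the data, the trend on the mean change and leaving out BXD89 or BXD75. One called gene of chromosome 2 is counted but not reported here.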

Additional observations from a re-analysis of the deposited data

Results flagged for a closer look

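The difference between carriers differed between conditions or tissues, by the test of that difference (limma over all genes, adjusted p under 0.05), at the following named genes. In cortex the change with SD differed by 1.13 at Pla2g4e and by -0.18 at Rmdn3. In Ctr pools the difference between D2 and B6 carriers in liver minus that in cortex was -5.78 at Disp2, -1.54 at Itpripl1 and -0.30 at Rmdn3. It was 3.94 at Adra1d, 3.42 at Ltk, 2.60 at Spint1, 2.41 at A730036I17Rik, 2.21 at Pak6, 1.83 at Capn3 and 0.34 at Rpap1. Over the alternatives the adjusted p by limma of this tissue difference ran from 0.000148 to 0.134 at Rpap1 (lost without the sublines or without the lines with fewer mice) and from 0.00103 to 0.0646 at A730036I17Rik (lost without the lines with fewer mice). Every one of these genes lies on chromosome 2. Groups of 13 and 20 lines are too large for the outlier test used for small groups, and BXD89 and BXD75 were singled out by their place between the carriers instead.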

How the results depend on the processing

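Under the alternatives the numbers of called genes ran from 64 to 94 in cortex Ctr, from 60 to 85 in cortex SD, from 2 to 3 for the cortex change, from 24 to 31 in liver SD and from 26 to 51 for the tissue difference in Ctr level. The liver change stayed at 0 genes. Leaving out BXD89 raised the liver Ctr count from 31 to 48, and leaving out BXD79, BXD85 and BXD101 raised the count for the tissue difference in change from 0 to 2. The cause was not tested. At Pla2g4e the difference ran from 0.62 to 0.73 in Ctr, from 1.67 to 1.85 in SD pools and from 1.04 to 1.14 for the change, where the adjusted p by limma ran from 3.33e-13 to 0.0225, the highest with the variance trend on the mean change. With no replicate block, ignoring the pairing of pools within a line, 2 genes were called in the cortex change and 0 in liver, and the difference at Pla2g4e was 1.13 ± 0.14 (adjusted p = 3.8e-07 by limma). Of 778 values of named called genes under alternatives 748 kept their call, 30 lost it (12 genes, among them 3830408C21Rik, 4933421O10Rik, Rad9b, Rbm28, C330018D20Rik, Fndc3b, Rpap1, Hdc, Ncaph, Bub1b and A730036I17Rik), and 0 turned direction. Liver libraries hold fewer reads in listed genes than cortex libraries, which limits genes of low level such as Disp2 in D2 carriers.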

Other observations

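The 4 BXD/TyJ lines, for which no allele at Pla2g4e was given, entered no comparison. In cortex Pla2g4e went from 5.17 (Ctr) to 3.50 log2 CPM (SD) in BXD05, a change of -1.66. It went from 5.63 to 4.99 in BXD29, from 5.66 to 4.99 in BXD29t and from 5.71 to 5.11 in BXD32, changes of -0.64, -0.67 and -0.60. In liver Ctr pools Disp2 was at 4.18 log2 CPM in BXD05, at -2.77 in BXD29, at -0.77 in BXD29t and at -0.76 in BXD32. Ltk in the same pools was at -1.12, 2.01, 2.80 and 1.33.

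Kif16b, a kinesin gene that lies farther along chromosome 2, was at 4.53 ± 0.29 log2 CPM in B6 and 4.17 ± 0.20 in D2 carriers of the Pla2g4e alleles in cortex Ctr pools (SD, n = 20 and 13), with an adjusted p of 0.0504 by limma.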
